A study of Mus musculus with 8 samples.

Results

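Basophils and mast cells are granulocytes that carry the high-affinity receptor for IgE, and 7 genes typical of them were followed in the BM of AML mice with different Gab2 genotypes. They encode the granule proteases Prss34, Mcpt8 and Cpa3, the IgE receptor chains Fcer1a and Ms4a2, the histamine-producing enzyme Hdc and the surface receptor Cd200r3. Of these 7 genes, 6 are among the 13305 genes of the deposited count table, and Fcer1a is not among the listed genes. The set was chosen by the measured values themselves, because Prss34 loads on the first principal component (PC1) of these 8 BM transcriptomes. The levels and genotype differences of its members are therefore given as a description, without a test.

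Whole BM was taken from mice of C57BL/6N background, and each mouse gave 1 library. AML WT mice (n = 3) carry Gab2+/+, AML HET mice (n = 2) Gab2+/- and AML KO mice (n = 3) Gab2-/-. Common to all 8 mice are Mx1-Cre, a heterozygous loss of Dnmt3a (Dnmt3a+/-) and a constitutive Flt3-ITD knock-in on both alleles (Flt3ITD/ITD). Mx1-Cre is an interferon-inducible Cre, which recombined the floxed Dnmt3a allele in these AML mice without pIpC injection, and no healthy mice were sequenced. The Gab2 knockout allele is present in all cells of the mouse, basophils and mast cells included. The age of the mice used for RNA-seq is not given in the sources used here.

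Basophils arise in the BM from granulocyte progenitors under the control of Gata2 and C/EBPα, respond to IL-3 and leave into the blood as mature cells. Mast cells use much of the same gene program but mature in tissues, where they store chymases and tryptases. When IgE on the surface of either cell is crosslinked, Lyn, Fyn and Syk pass the signal on. Gab2 is one of the docking proteins of this pathway in mast cells, so that these cells are of interest in a Gab2 knockout beyond their place in the BM.

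Libraries held 28009258 to 39266815 counts. These were scaled to library size (CPM, counts relative to each library's total after TMM correction by 0.928 to 1.036). Gab2 itself averaged 74.7 ± 17.0 CPM (SD, n = 3) with the Gab2+/+ genotype. HET mice averaged 53.3 ± 3.57 CPM (SD, n = 2) and KO mice 40.8 ± 6.15 CPM (SD, n = 3). Its groups did not overlap, and Gab2 fell by 0.87 on the log2 scale (standard error 0.18, adjusted p = 0.042, or 0.11 without AML WT replicate 2, edgeR). Where in Gab2 the reads that remain in AML KO BM lie cannot be read from a count per gene.

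The label of the gene set was compared with markers of either cell type. The basophil markers are the 7 genes themselves, so that they give no independent check. Of these, 6 are listed, and Cd200r3 owes most of its counts to the AML KO mice. Itga2 and Ptgdr2, further surface genes of basophils, are not among the listed genes. Of the 6 markers of mature mast cells, only Kit is listed, and Kit is also a progenitor gene. The chymases and tryptases Cma1, Mcpt4, Tpsab1 and Tpsb2 and the mast cell receptor Mrgprb2 are not among the listed genes. The lowest sum of a listed gene over the 8 mice is 106 counts. The label was therefore not checked beyond the listing of these markers. Hdc and Cpa3 are in addition used by other myeloid cells and early progenitors.

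RefSeq (GRCm38.p6) holds a promoter for each of the 7 genes. The 250 bases before the transcription start are shown for the 4 listed genes whose start is the same in RefSeq and GENCODE M21, because Gata1 and Gata2, described further on, also differed between the genotypes. Capitals mark every GATA word, that is the word AGATAA, the word TGATAA, the word AGATAG or the word TGATAG on either strand.
Prss34, chr17:25298144-25298393, plus strand: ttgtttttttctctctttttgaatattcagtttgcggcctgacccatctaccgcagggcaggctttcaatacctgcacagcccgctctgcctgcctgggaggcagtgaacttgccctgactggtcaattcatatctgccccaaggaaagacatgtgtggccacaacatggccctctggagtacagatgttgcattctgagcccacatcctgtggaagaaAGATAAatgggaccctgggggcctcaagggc
Cpa3, chr3:20242182-20242431, minus strand: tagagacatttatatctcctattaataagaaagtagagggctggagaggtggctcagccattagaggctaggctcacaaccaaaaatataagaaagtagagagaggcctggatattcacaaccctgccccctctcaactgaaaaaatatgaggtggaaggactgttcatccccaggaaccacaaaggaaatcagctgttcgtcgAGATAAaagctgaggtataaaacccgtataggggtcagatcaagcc
Ms4a2, chr19:11623720-11623969, minus strand: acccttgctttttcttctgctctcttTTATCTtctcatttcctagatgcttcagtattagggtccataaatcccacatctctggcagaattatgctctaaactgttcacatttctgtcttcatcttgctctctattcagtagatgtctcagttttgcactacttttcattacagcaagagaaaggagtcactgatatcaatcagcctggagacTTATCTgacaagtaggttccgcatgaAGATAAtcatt
Cd200r3, chr16:44943428-44943677, plus strand: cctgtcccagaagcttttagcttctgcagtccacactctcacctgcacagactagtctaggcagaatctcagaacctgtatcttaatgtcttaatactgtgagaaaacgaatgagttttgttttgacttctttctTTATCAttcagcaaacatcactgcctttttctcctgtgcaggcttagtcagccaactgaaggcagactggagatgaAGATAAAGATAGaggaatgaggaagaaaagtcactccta
Prss34 and Cpa3 have 1 GATA word each, at 31 and 46 bases before the start. Ms4a2 has 3 words, the nearest at 11 bases, and Cd200r3 has 3, of which 2 are adjacent between 39 and 28 bases before the start. Over all 7 promoters, 6 hold at least 1 GATA word, and Mcpt8 holds none. Such a word is common, as 26.5% of the 32851 RefSeq promoters and 17.7% of the 12760 promoters of listed genes have it in the same 250 bases. The word TTCNNNGAA, bound by STAT proteins, is in 0 of the 7 promoters and in 7.02% of all promoters. TGTGGT, a RUNX word, is in 3 of the 7 and in 14.0% of all, and TTGCNNAA, a C/EBP word, in 2 of the 7 and in 9.56%. TATAAA is in 2 of the 7 and in 12.4% of all promoters. Among the promoters of listed genes, the STAT word is in 6.0%, the RUNX word in 11.3%, the C/EBP word in 7.74% and TATAAA in 6.37%. All words were searched on both strands. For Mcpt8 and Hdc, GENCODE places the start upstream of the RefSeq start, so that their windows lie partly or wholly inside the GENCODE gene. These matches are descriptions of letters and not of binding, and whether Gata1 or Gata2 acts on these genes was not tested.

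Among the granule proteases, Prss34 (mast cell protease 11, a serine protease released by basophils; chromosome 17, 25298394 to 25300165) had the largest difference. Its counts were 68, 170 and 269 (AML WT), 820 and 740 (AML HET) and 4402, 1849 and 2544 (AML KO). Scaled to library size, they correspond to 1.67, 5.37 and 8.24 CPM in AML WT, 28.7 and 23.6 in AML HET and 144, 67.3 and 75.0 in AML KO. Each genotype was separate from the others, with AML KO replicate 1 the highest mouse and AML WT replicate 1 the lowest. Relative to AML WT, the fitted log2 fold change was 4.24 (standard error 0.53) in AML KO and 2.37 (standard error 0.52) in AML HET. This corresponds to an 18.9-fold and a 5.17-fold higher level.

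Mcpt8 (mast cell protease 8, a granzyme-like protease that in mice marks basophils; chromosome 14, 56082166 to 56085273) was the most abundant member in AML WT BM. Its levels were 21.1, 28.9 and 28.7 CPM in AML WT, 39.6 and 37.5 in AML HET and 97.1, 40.8 and 59.7 in AML KO. The genotypes did not overlap, but AML KO replicate 2 was only slightly above both AML HET mice. Relative to AML WT, the log2 fold change was 1.33 (standard error 0.28) in AML KO and 0.56 (standard error 0.31) in AML HET.

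Cpa3, the carboxypeptidase of the granules (chromosome 3, 20215620 to 20242181), differed least. Its values were 10.7, 6.48 and 8.24 CPM in AML WT, 11.3 and 9.11 in AML HET and 16.7, 12.2 and 12.3 in AML KO. All AML KO mice were above all others, while AML HET replicate 2 lay within the range of AML WT. The log2 fold change was 0.69 (standard error 0.23) for AML KO and 0.27 (standard error 0.25) for AML HET against AML WT.

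Ms4a2 encodes the β chain of the IgE receptor, which amplifies its signal (chromosome 19, 11615523 to 11623719). It had 39, 31 and 35 counts in AML WT, 103 and 56 in AML HET and 234, 117 and 169 in AML KO mice, or 0.959, 0.980 and 1.07 CPM, 3.61 and 1.78 CPM, and 7.65, 4.26 and 4.98 CPM. The AML WT mice were nearly equal, the AML HET mice were apart from each other, and no genotypes overlapped. Its log2 fold change was 2.49 (standard error 0.35) for AML KO and 1.42 (standard error 0.38) for AML HET, and the latter was 0.83 without AML HET replicate 1 and 1.84 without AML HET replicate 2. Fcer1a, the IgE-binding α chain (chromosome 1, 173221284 to 173227214), has no value here.

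Hdc, histidine decarboxylase (chromosome 2, 126593667 to 126619299), behaved differently across mice. It was at 19.4, 21.0 and 25.2 CPM in AML WT, 24.4 and 28.5 in AML HET and 50.9, 62.3 and 43.6 in AML KO. Here AML KO replicate 2 was the highest mouse, whereas it was the lowest AML KO mouse for the other 5 genes. AML HET overlapped with AML WT. The log2 fold change was 1.26 (standard error 0.17) for AML KO and 0.28 (standard error 0.19) for AML HET.

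Cd200r3, an activating receptor of basophils and mast cells (chromosome 16, 44943678 to 44981380), was counted least. It had 11, 2 and 14 counts in AML WT, 27 and 20 in AML HET and 61, 23 and 57 in AML KO mice, so that counting error limits it as well. AML KO and AML HET overlapped, and both were above AML WT. The log2 fold change was 2.54 (standard error 0.57) for AML KO and 1.61 (standard error 0.64) for AML HET.

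**Figure D1:**
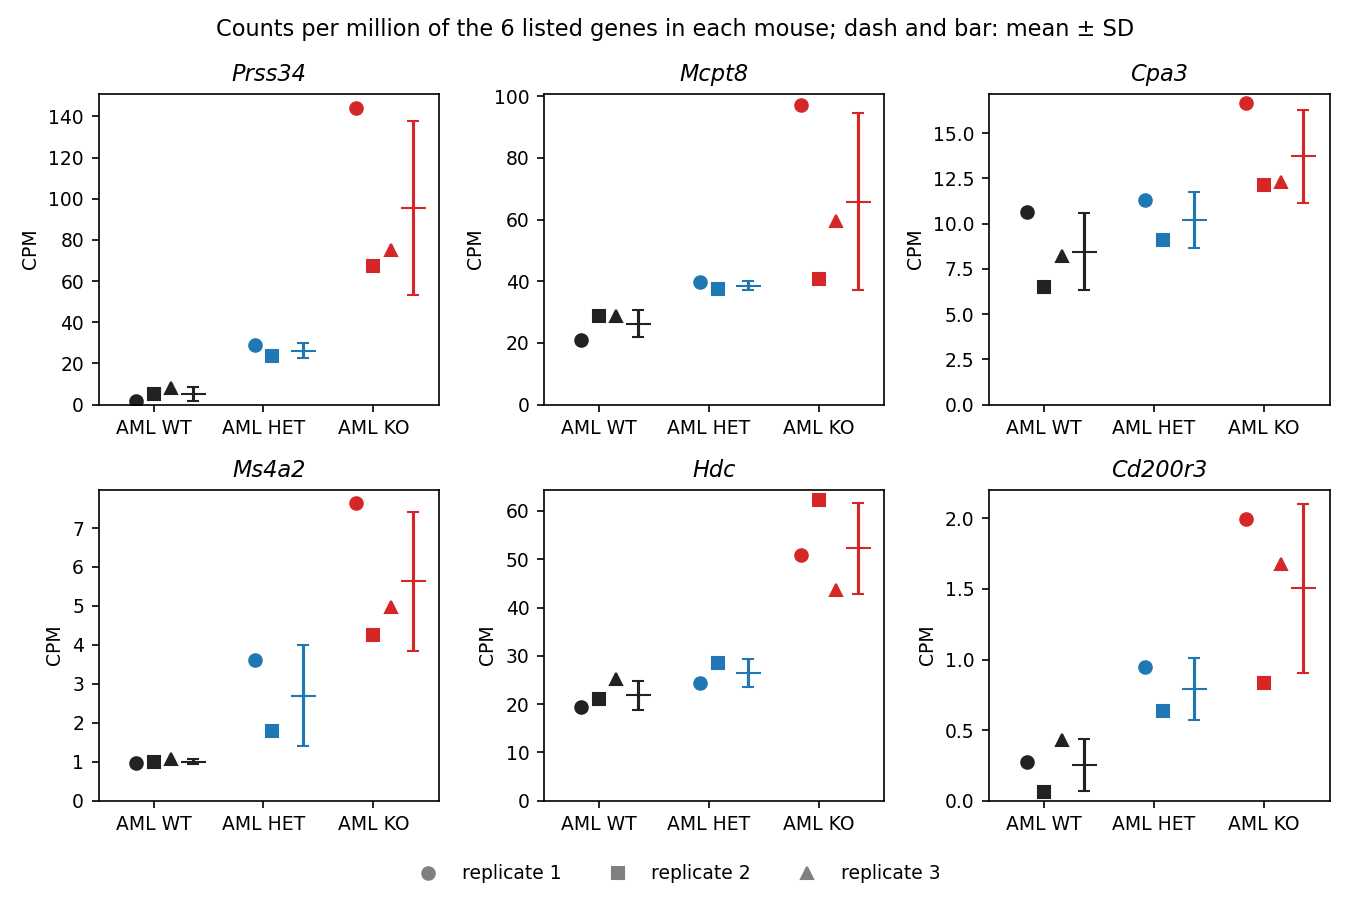
Levels of the 6 listed genes in CPM (y axes, each from 0) for mice of the 3 genotypes, with symbols for the replicate number and a dash with bar for the mean and SD. All AML KO mice lie above all AML WT mice in each panel, and AML KO replicate 1 is the highest mouse for every gene but Hdc.

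In sum over the 6 genes, the level was 54.0 to 71.8 CPM in AML WT, 101 and 109 in AML HET and 188 to 318 in AML KO BM. For all 6 genes the AML KO mice were above the AML WT mice without overlap, which was the case for 12.3% of all genes in this direction. Cd200r3 may be listed only through its counts in AML KO mice, so its separation is in part set by the listing. AML HET was above AML WT without overlap for 4 of 6 genes (9.53% of all genes) and below AML KO for 5 of 6 (13.2% of all genes). On a log2 scale that runs from 0 (AML WT) to 1 (AML KO), AML HET lay between 0.22 (Hdc) and 0.63 (Cd200r3). The comparisons share mice, so these positions are not independent of each other. The median log2 fold change of the 6 genes was 1.91 for AML KO against AML WT, 0.99 for AML HET against AML WT and 0.96 for AML KO against AML HET. Over all 13305 genes the median for AML KO against AML WT was -0.02. In the genome-wide fit between AML KO and AML WT, 4 of the 6 genes (Prss34, Mcpt8, Ms4a2 and Hdc) had an adjusted p under 0.05, as did 1.77% of all genes in this direction. Since the choice of Prss34 used the same mice, nothing is read from this count. It was 0 without AML WT replicate 2, 5 without AML KO replicate 2 and 3 or 4 without any other mouse. Against AML HET, and between AML HET and AML WT, 0 of the 6 passed (0% and 0.0225% of all genes).

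**Figure D2:**
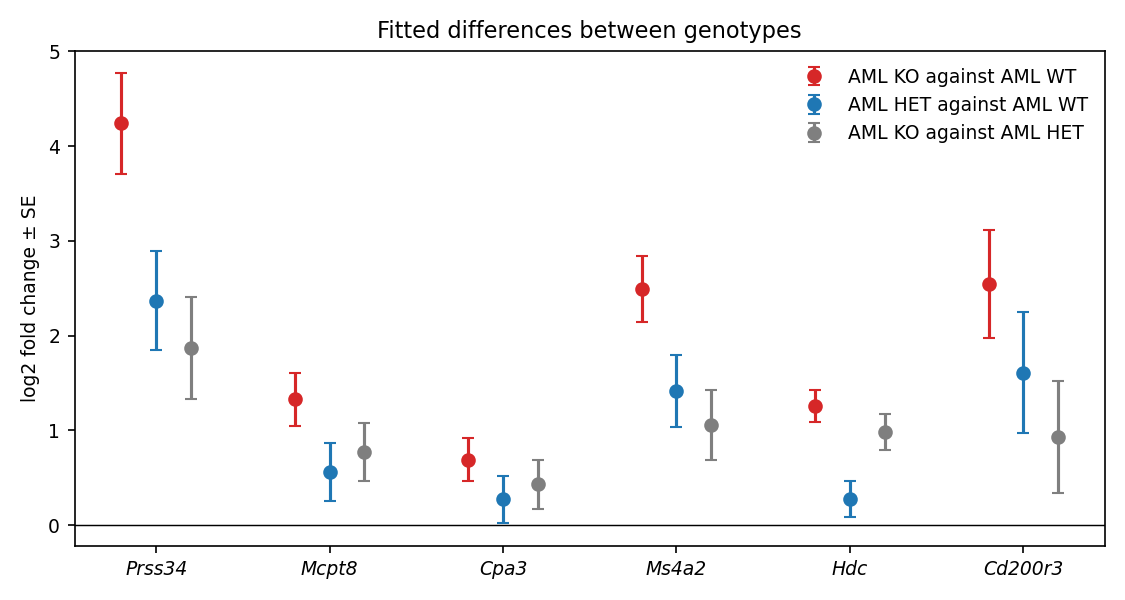
Fitted log2 fold change with standard error (y axis) of the 6 listed genes (x axis) for the 3 comparisons of genotypes. All 18 values are above 0, Prss34 has the largest and Cpa3 the smallest value between AML KO and AML WT.

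PC1 was computed from the 1331 genes with the largest median absolute deviation and held 55.4% of the variance. Prss34 had the 4th largest loading in the direction of AML KO. Cd200r3 was at rank 108, Ms4a2 at 126, Mcpt8 at 281 and Hdc at 354, while Cpa3 was not among these 1331 genes. With all genes in the analysis, Cpa3 was at rank 1529. PC1 had -30.97 to -20.99 in AML WT, -7.97 and 7.76 in AML HET and 10.61 to 40.11 in AML KO mice. These are the values that chose the set.

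Levels of different genes were compared per kb of exon length. In AML WT BM, Mcpt8 was far above the others with 26.3 ± 4.42 CPM per kb (SD, n = 3). Cpa3 (5.58 ± 1.39), Prss34 (4.175 ± 2.70) and Hdc (3.42 ± 0.469) followed. Prss34 did not differ from Cpa3 or Hdc beyond its spread, while Cpa3 was above Hdc in every mouse without overlap. Ms4a2 was at 0.357 ± 0.0213 and Cd200r3 at 0.0425 ± 0.0306. In AML HET BM, the order was Mcpt8, Prss34, Cpa3, Hdc, Ms4a2 and Cd200r3, and Prss34 (21.45 ± 3.00 CPM per kb, SD, n = 2) was between Mcpt8 (38.65 ± 1.47) and Cpa3 (6.725 ± 1.01). In AML KO BM, Prss34 had 78.2 ± 34.6 and Mcpt8 66.0 ± 28.7 CPM per kb (SD, n = 3), which was within the spread. Cpa3 and Hdc, at 9.04 ± 1.69 and 8.18 ± 1.47, did not differ beyond their spread either.

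The members thus did not change in proportion to each other. The ratio of Prss34 to Mcpt8 within a mouse, both in CPM per kb, was 0.0648, 0.152 and 0.235 in AML WT, 0.594 and 0.514 in AML HET and 1.21, 1.35 and 1.03 in AML KO mice. These ratios did not overlap between genotypes. Prss34 was chosen through PC1 of the same mice, so a large difference in its ratio follows in part from that choice. For Ms4a2 to Mcpt8 the ratio was 0.0120 to 0.0161 in AML WT and 0.0280 to 0.0371 in AML KO mice. The AML HET mice had 0.0323, within the range of AML KO, and 0.0169, close to AML WT. Hdc to Mcpt8 (0.114 to 0.143 in AML WT, 0.0819 to 0.239 in AML KO) and Cpa3 to Mcpt8 (0.148 to 0.332 and 0.113 to 0.196) overlapped. In whole BM, more cells of a type and more RNA per cell cannot be told apart.

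**Figure D3:**
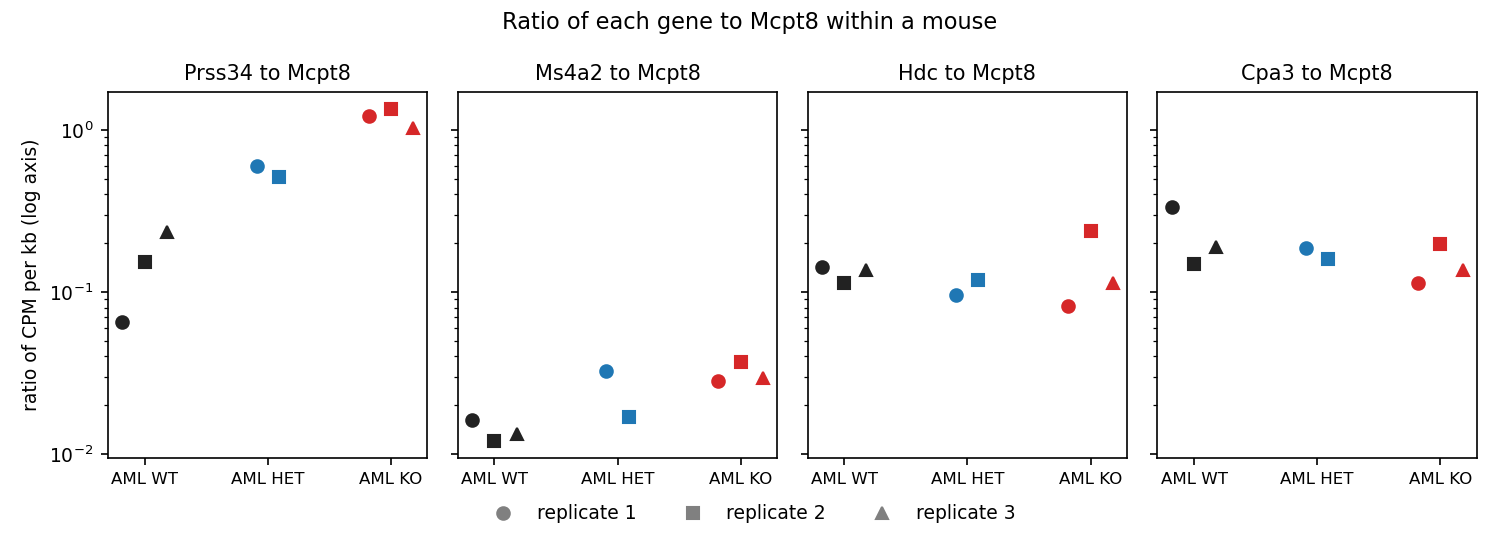
Ratio of Prss34, Ms4a2, Hdc and Cpa3 to Mcpt8 within each mouse, as CPM per kb of exon length on a log axis, by AML genotype. The ratio of Prss34 rises from 0.0648 in the lowest AML WT to 1.35 in the highest AML KO mouse, while those of Hdc and Cpa3 overlap between genotypes.

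Within a genotype, after subtraction of the genotype mean on the log2 CPM scale, Prss34 and Mcpt8 deviated together over the 8 mice (Pearson r = 0.72). The same was seen for Cpa3 and Cd200r3 (0.70) and for Mcpt8 and Ms4a2 (0.66). With Hdc, r lay between -0.34 and 0.34 for the other 5 genes. Pairs without Hdc ranged from -0.21 (Prss34 and Cpa3) to 0.72, and Prss34 with Cd200r3 (0.21) and Mcpt8 with Cpa3 (0.23) were also low. Both genes of a pair were read from the same libraries, which differ in depth and BM composition, and the values are descriptions over 8 mice. Subtraction of the genotype means leaves fewer than 8 independent values, and the AML HET mice deviate equally and oppositely by construction.

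The 5 genes whose log2 CPM over the 8 mice was most like that of Prss34 were Pglyrp1 (Pearson r = 0.995), a peptidoglycan-binding protein of neutrophil granules, Ffar2 (0.991), a receptor for short-chain fatty acids, 4930486L24Rik, Pgghg (both 0.990) and Rtn4rl1 (0.986). They differ in how far they moved, as Pglyrp1 had means of 46.3 and 201.9 CPM in WT and KO mice, and Pgghg 32.6 and 38.6. Most like the mean of the 6 genes were the T cell receptor γ constant genes Tcrg-C2 (0.995) and Tcrg-C1 (0.991), the progenitor markers Cd34 (0.984) and Prom1 (0.983) and Syne1 (0.983), a protein of the nuclear envelope. All are given over 8 mice of 3 genotypes, so a gene that differs between genotypes will resemble them.

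Next, 60 other genes that basophils and mast cells use were looked up by their role, and 43 of them are in the table. In AML KO BM, 4 of the 43 rose (beside 1.77% of all genes) and 1 fell (0.323%), together 11.6% of the list against 2.09% of all genes. The lists were chosen with earlier results of these data known, so no enrichment is read from this share. Their median log2 fold change was -0.01, and 38 did not pass. No call was made with edgeR when HET mice were compared with WT or KO mice (0 in either case). Unadjusted p was under 0.05 for 5 genes against WT (2.47% of all genes) and for 6 against KO (5.86%). For KO against WT mice, limma-voom called 5 of the 43 (266 of all 13305 genes) and DESeq2 called 9 (730 of all 13305 genes).

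Among 9 lineage transcription factors, Gata1 and Gata2 rose and 7 did not pass. Gata2, needed for basophil and mast cell development and used by stem cells, averaged 9.35 ± 1.23 CPM (SD, n = 3) in the WT, 14.4 ± 0.895 CPM (SD, n = 2) in the HET and 31.6 ± 12.2 CPM (SD, n = 3) in the KO mice. It thus rose by 1.76 on the log2 scale (standard error 0.25), with a Benjamini-Hochberg adjusted p of 0.0102 in the edgeR quasi-likelihood fit. Gata1 is shared with erythroid cells, megakaryocytes and eosinophils. It averaged 1.06 ± 0.460 CPM in the WT and 12.2 ± 6.09 CPM in the KO mice (SD, 3 mice each). From this low WT level Gata1 rose by 3.54 (standard error 0.53, adjusted p = 0.0127, edgeR). Both Gata1 and Gata2 were highest in AML KO replicate 1. Leaving out AML WT replicate 2 brought both to an adjusted p of 0.0579. Cebpa, at 0.07 (standard error 0.13), and Spi1, at 0.06 (standard error 0.15), are the most abundant factors per length and had adjusted p of 0.793 and 0.838 in the edgeR fit.

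Of 10 listed surface and cytokine receptors, Cd63 rose and Il1rl1 fell. Cd63, a granule membrane protein that appears on the surface of activated basophils and is made by many cells, averaged 48.6 ± 11.3 CPM with intact Gab2 and 126.2 ± 28.6 CPM in its absence (SD, 3 mice each). This is a log2 difference of 1.38 (standard error 0.21, adjusted p = 0.0122, edgeR). Il1rl1, the receptor for IL-33 on mast cells and basophils, went the other way from the 6 genes, from 16.2 ± 4.12 to 5.94 ± 1.06 CPM (SD, 3 mice each) or by -1.45 on the log2 scale (standard error 0.25, adjusted p = 0.0208, edgeR). Leaving out AML WT replicate 2 gave Cd63 an adjusted p of 0.0685 and Il1rl1 one of 0.0883, and leaving out AML KO replicate 3 gave Il1rl1 0.0963. The most abundant receptors per length, Crlf2 and Il3ra, had log2 fold changes of 0.38 and 0.65 (adjusted p = 0.291 and 0.161, edgeR). Il3ra binds IL-3, the main growth factor of basophils. Kit, the stem cell factor receptor that mature mast cells keep, was at 0.08 (standard error 0.19, adjusted p = 0.831, edgeR).

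Of 12 listed mediators and enzymes of their synthesis, Alox5 rose. Alox5, the 5-lipoxygenase of leukotriene synthesis, rose by 0.81 on the log2 scale (standard error 0.17, adjusted p = 0.0456, edgeR), and its adjusted p was above 0.05 in 10 of 16 alternatives, up to 0.171 without AML WT replicate 2. Srgn, the core of granule proteoglycans, and Alox5ap, the partner of Alox5, were the most abundant per length and had 0.12 and 0.24 (adjusted p = 0.609 and 0.375, edgeR). The cytokines Il4, Il13 and Il6 and the leukotriene synthase Ltc4s are not among the listed genes.

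Of the 12 genes that act in IgE receptor signaling, all are listed and 0 passed with edgeR. Their median log2 fold change was -0.03. The most abundant were Fcer1g, the γ chain that IgE receptors share with other Fc receptors, at 0.21 (standard error 0.18, adjusted p = 0.539, edgeR), and Plcg2 at -0.28 (standard error 0.20, adjusted p = 0.434, edgeR). These genes are active in most myeloid cells, so whole BM does not show their level in basophils. Of 9 further granule proteases of mast cells, 0 are listed.

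**Figure D4:**
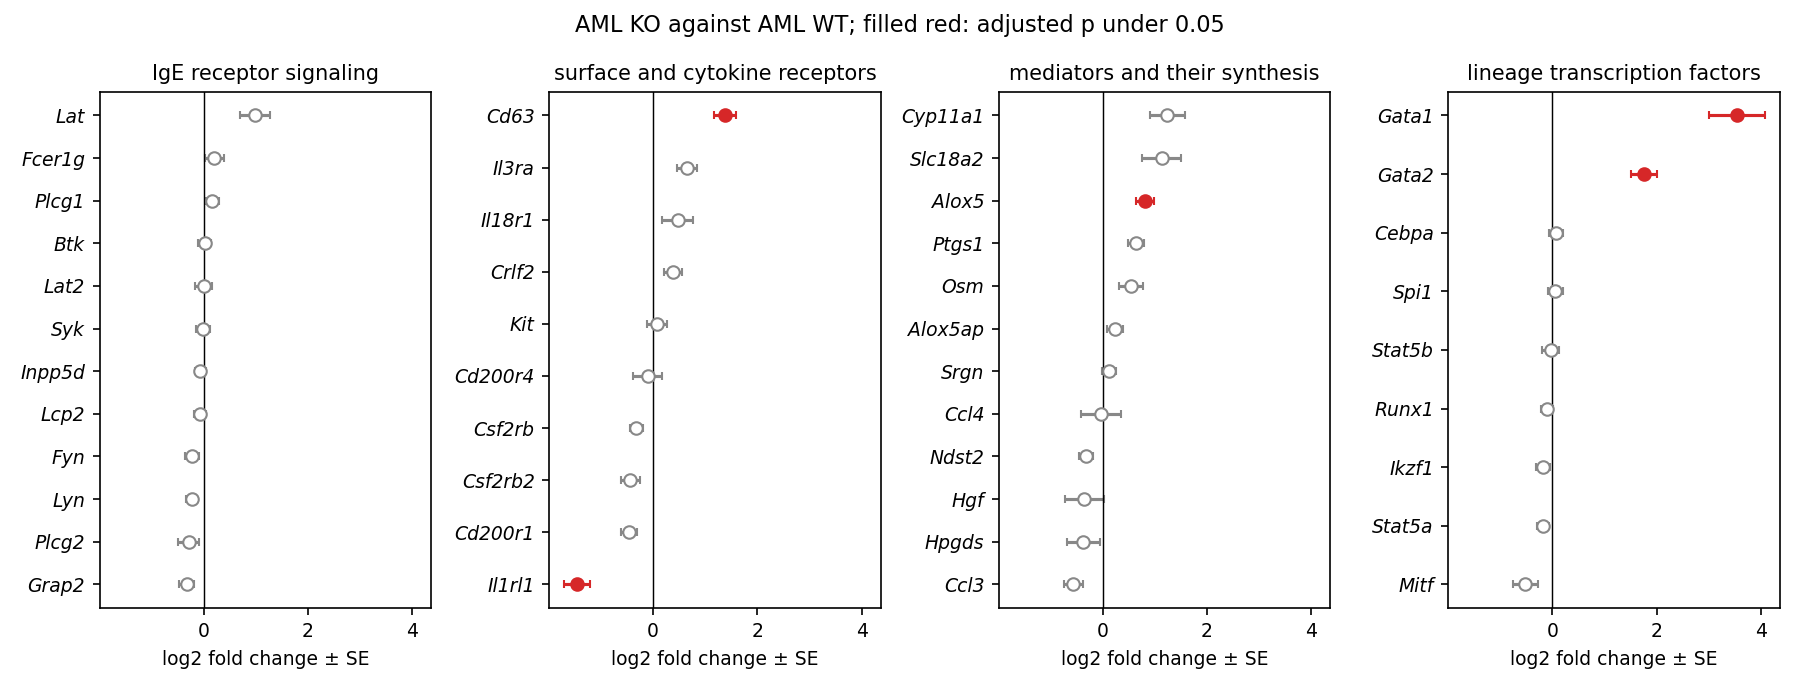
Log2 fold change with standard error (x axes) between AML KO and AML WT BM for the 43 listed genes in 4 roles, with filled red points for an adjusted p under 0.05. Gata1, Gata2, Cd63 and Alox5 lie to the right of 0 and Il1rl1 to the left, and no gene of IgE receptor signaling passed.

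Some markers of other cells moved with these genes. These lists too were chosen with earlier results of these data known. Of all genes, 1.77% were called higher and 0.323% lower in AML KO than in AML WT BM. The summed level of 5 listed eosinophil genes ranged from 53.8 to 91.4 CPM in WT and from 63.3 to 92.1 CPM in KO mice and overlapped. Within this list, however, Prg2 (major basic protein) rose by 3.19 and Epx (eosinophil peroxidase) by 3.26 (adjusted p = 0.00698 and 0.0247, edgeR). Both were named after their values were seen. Epx, at 0.185 CPM in WT and 1.73 CPM in KO mice, owes most of its counts to the AML KO mice. Since listed genes have at least 106 counts in sum, Epx may be listed only through these mice, and nothing is read from its call. Ear2, the most abundant gene of the eosinophil list by CPM, had -0.94 (adjusted p = 0.0707, edgeR). The megakaryocyte and platelet list was at 35.3 to 37.9 CPM and 225 to 336 CPM in WT and KO mice. Here 10 of 10 genes were higher past the threshold, Itga2b the most abundant by CPM. The limit given for Epx also holds for Gp6 of this list, at 0.151 CPM in WT and 1.18 CPM in KO mice. The erythroid list was at 318 to 448 and 1523 to 5371 CPM, with 9 of 11 genes past the threshold, Hbb-bs the most abundant by CPM. The mature neutrophil list was at 1279 to 4669 and 10403 to 17056 CPM, with 6 of 10 past the threshold, S100a9 the most abundant by CPM. For monocytes it was 4444 to 5222 and 3275 to 4577 CPM with 0 of 8 genes past the threshold, F13a1 the most abundant by CPM. For stem and progenitor cells it was 3729 to 3979 and 4729 to 5250 CPM with 1 of 10 genes (Cd34) higher past the threshold, Mpo the most abundant by CPM. Mpo alone averaged 3019 CPM in WT and 4003 CPM in KO mice, so that this sum mostly follows Mpo. Within genotypes, the mean deviation of the 6 basophil and mast cell genes had r = 0.68 with that of the neutrophil list and 0.38 with that of the erythroid list, and r between -0.36 and 0.26 with the other 4 lists, over 8 mice. These deviations too hold fewer than 8 independent values. For these lists, the only mouse left out in turn was AML WT replicate 2. Without this mouse, the edgeR fit called 40 genes in all between AML KO and AML WT. It called 7 of 10 megakaryocyte and platelet genes and 1 of 5 eosinophil genes (Prg2, with Epx at an adjusted p of 0.0579). From the erythroid, neutrophil and stem and progenitor lists it called 0 genes. The part of these cells in the levels of the 6 genes was not tested.

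**Figure D5:**
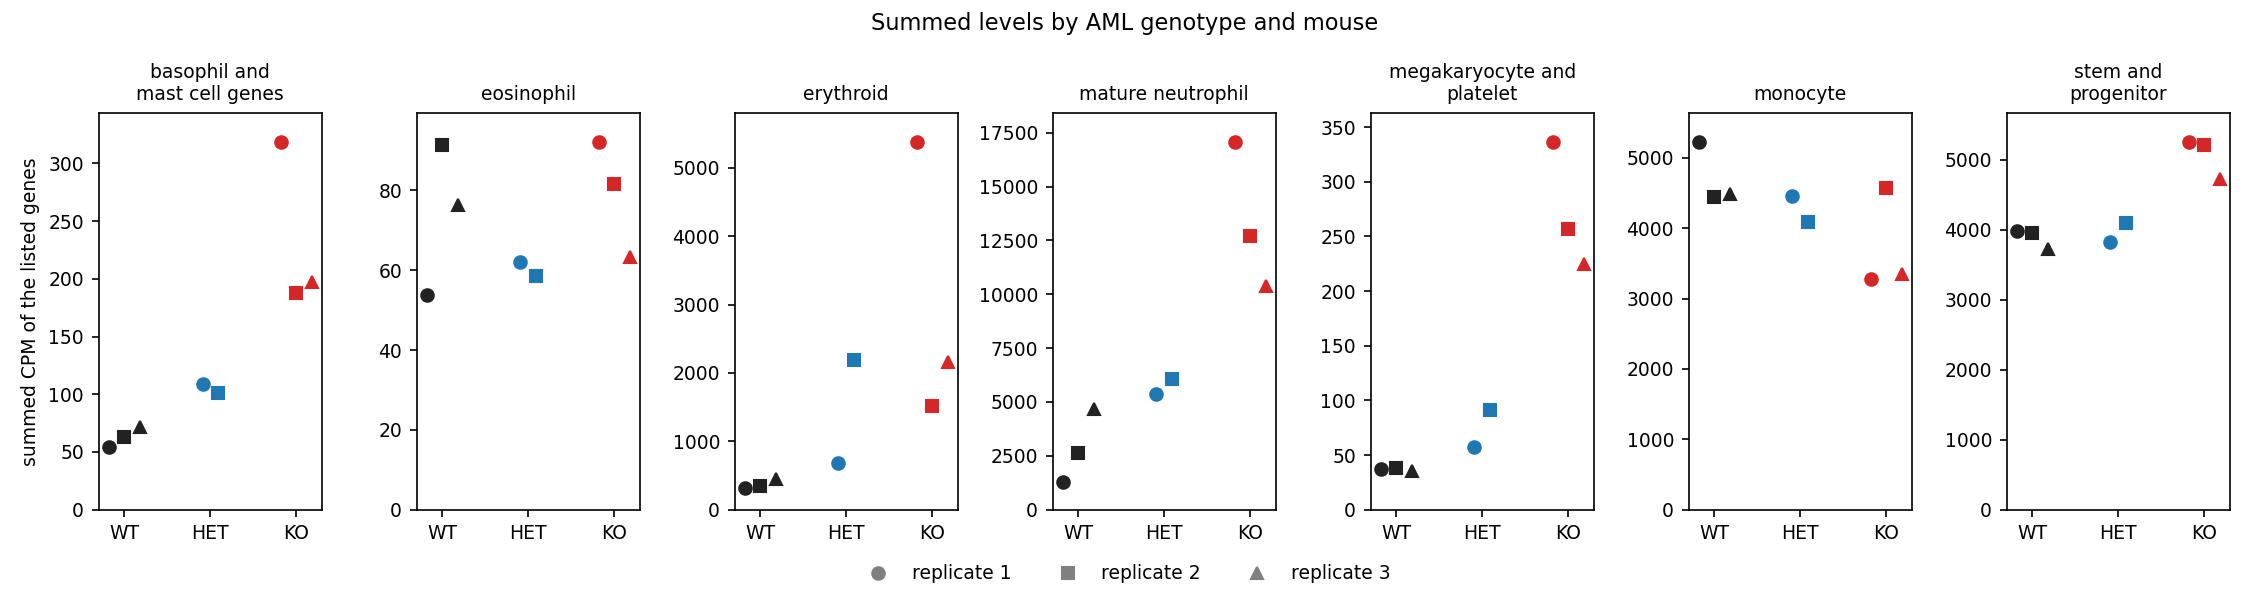
Summed CPM (y axes, each from 0) of the 6 basophil and mast cell genes and of 6 marker lists in each mouse, by AML genotype, with symbols for the replicate number. The basophil and mast cell, erythroid, neutrophil, megakaryocyte and stem and progenitor sums are higher in all AML KO than in all AML WT mice. The stem and progenitor sum is mostly Mpo, and the eosinophil and monocyte sums overlap.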

How the data were processed

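RNA of whole BM from 8 mice (3 AML WT, 2 AML HET, 3 AML KO) was sequenced on a HiSeq. The authors deposited raw counts per gene, without normalization. The submitters' processing notes name Trimmomatic 0.36, STAR 2.5.2b and the build mm10. The counting tool, the annotation and the rule for listing genes are not given in the sources used here. Symbols, positions and exon lengths came from GENCODE M21 (GRCm38), which holds 13266 of the 13305 Ensembl identifiers.

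The test was edgeR 4.0.16 under R 4.3.3 (TMM, filterByExpr, robust quasi-likelihood test on all 8 mice with genotype as the only term) and Benjamini-Hochberg adjustment over the whole table. Calls had an adjusted p under 0.05, and the F statistic gave the standard errors. PC1 rests on the 10% most variable genes by median absolute deviation of log2 CPM (prior count 2). The fit was tested on simulated data. Alternatives were DESeq2 1.42.0, limma-voom (limma 3.58.1), other scaling and filters, AML WT and AML KO mice alone, the mouse number as a block and each mouse left out. The 7 genes and all lists were chosen with earlier results of these data known. In the lists, genes were named if they passed (at most 4) or were among the 2 most abundant per length. Cell type markers such as Kit and those not listed were named from the marker lists. Python 3.11.15 with pandas 2.3.3 and matplotlib 3.10.9 drew the figures. Each library is from a separate mouse, and no replicates agreed within sampling noise. Cd200r3, with 2 to 61 counts per mouse, is the gene that depth limits most.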

Additional observations from a re-analysis of the deposited data

How the results depend on the processing

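All 276 values of the 6 genes under the alternatives kept their direction over the 3 comparisons. Only Ms4a2 moved by at least its spread between mice, in 4 values from the 2 fits that left out an AML HET mouse. Between AML KO and AML WT the median of the 6 genes was 1.74 to 2.11, Prss34 was 3.80 to 4.77, Mcpt8 0.94 to 1.57 and Cd200r3 2.11 to 3.09. Of the 13305 genes, DESeq2 called 730 in place of 278 between AML KO and AML WT, 59 in place of 3 between AML HET and AML WT and 77 in place of 0 between AML KO and AML HET. It called 9 of the 43 wider basophil and mast cell genes in place of 5. Limma-voom called 1 gene between AML HET and AML WT. Fits without 1 mouse called 40 (without AML WT replicate 2) to 370 genes, 1 to 5 and 0 to 4 genes in these comparisons, and 0 (without AML WT replicate 2) to 5 of the wider genes, with 3 without AML KO replicate 3. Where an AML HET mouse was left out, the remaining mouse was assumed to vary like the other groups. With the mouse number as a replicate block, 19, 0 and 0 genes passed, with 0 of the wider genes and 0 of the 6 genes between AML KO and AML WT. After subtraction of the genotype means, same-numbered mice had correlations between -0.51 and 0.29. With so few mice per genotype, the deviations within a genotype are tied to each other. These correlations therefore cannot show whether same-numbered mice share more than a number. PC1 held 48.8% of the variance with all genes, 45.0% with genes scaled to unit variance and 54.5% with a prior count of 0.5, and Prss34 was then at rank 4, 80 and 6 by loading. The causes of these differences were not tested.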
